A study of Homo sapiens with 20 samples.

Results

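The T cell receptor is assembled from an antigen-binding pair of chains and a set of signaling chains, and the genes of its invariant parts were followed here in WT Jurkat T lymphoblasts and in CD47- Jurkat cells. The genes were chosen by name and are 8 of 60719 in the gene table. TRAC encodes the constant region of the α chain. TRBC1 and TRBC2 encode alternative constant regions of the β chain. CD3D, CD3E and CD3G encode the δ, ε and γ chains of CD3, CD247 encodes the ζ chain, and PTCRA encodes pre-Tα, the surrogate α chain that pairs with the β chain in immature thymocytes. All 8 genes passed the filter on low counts and were among the 16327 genes tested.

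An α chain and a β chain form the part of the receptor that recognizes antigen, and neither reaches the cell surface without the CD3 and ζ chains. The CD3 and ζ chains carry the tyrosine motifs that LCK phosphorylates when the receptor is engaged. In the thymus, the pre-T cell receptor uses pre-Tα in place of the α chain, and PTCRA is normally shut off once the α locus has rearranged. Jurkat is a human T cell leukemia line with a mature αβ receptor.

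The CD47- cells were JinB8, a somatic mutant of Jurkat that is deficient in CD47. Because a single mutant line was compared with WT, loss of CD47 cannot be told apart from other differences of that line. Each line had 10 libraries, namely 1 from untreated cells at 1 h and 1 at each of 1, 3 and 6 h from cells on plates coated with anti-CD3 and anti-CD28 (CD3+CD28), from cells on such plates with thrombospondin-1 at 1 μg/mL (CD3+CD28+TSP1), and from cells given TSP1 alone. All cells were in serum-free medium with insulin, transferrin, selenite and hydrocortisone. Cells were plated for each treatment and time, but no condition was repeated within a line, and the spread of a line therefore includes treatment and time.

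CD47 mRNA itself was lower in the CD47- line but was not absent. It was between 253 and 372 CPM (counts scaled to a common library size) in WT and between 124 and 165 CPM in CD47- libraries, a 2.15-fold difference. Library totals were between 16107921 and 31737616 counts. The CD47- library with CD3+CD28+TSP1 at 3 h had the lowest total and the highest TMM factor (the scaling factor of edgeR, 1.20), and the main values that rest on it are given with and without it. In 3 h libraries without it, a comparison chosen after the data were seen, 6 of the 8 genes passed between the lines, against 41.4% of all genes tested in that fit. All 7 T lineage markers averaged over 1 CPM in both lines, with summed levels of 695 to 953 CPM in WT and 996 to 1284 CPM in CD47- libraries. Of the 5 B lineage markers, CD79A and CD79B averaged over 1 CPM and the list summed to 35.6 to 56.01 CPM in WT and 5.86 to 13.7 CPM in CD47- libraries, while MS4A1 and PAX5 stayed under 1 CPM in every library. The part of this difference in the results below was not tested. Lists of 5 myeloid, 4 NK, 4 mesenchymal and 3 erythroid markers summed to at most 12.4 CPM in any library, and no marker of any list was at 0 in all 20 libraries.

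The first comparison asked whether the lines differed in these chains over all conditions. TRAC and PTCRA were each over 8-fold lower in CD47- cells, TRBC1 was 1.74-fold lower, and CD3G and CD3E were slightly higher. TRBC2, CD3D and CD247 did not pass the test over all conditions. Thus 5 of 8 genes passed, against 40.4% of all 16327 genes tested by edgeR (quasi-likelihood F-test) at an adjusted p threshold of 0.05. The median absolute log2 difference was 0.47 for the 8 genes and 0.29 for all genes tested. The 10 libraries of a line did not overlap with those of the other line for TRAC, PTCRA and TRBC1, and 11.5% of all tested genes were separated in this way.

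TRAC, on chr14:22547506-22552156 of GRCh38 (plus strand, ENSG00000277734.8), was at a lowest, median and highest level of 122, 162 and 301 CPM in WT libraries. The same levels in CD47- libraries were 15.01, 22.9 and 28.7 CPM. The highest CD47- library was thus far below the lowest WT library. In bulk RNA, fewer cells with a transcript cannot be told apart from less of it in each cell. The log2 difference was -3.08 with an SE of 0.18 (8.45-fold lower, adjusted p = 4.57e-12 with edgeR). Of 16327 tested genes, 90 were lower in CD47- cells by at least as much as TRAC, counting TRAC. The difference was -2.78 in 1 h, -3.38 in 3 h and -3.09 in 6 h libraries alone, and the 3 h value was -3.20 without the CD47- library that stood apart. A single annotated transcript represents TRAC, so the isoform table carries the same difference (log2 difference -3.06).

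PTCRA, on chr6:42915989-42925838 (plus strand, ENSG00000171611.10), was the least abundant of the genes in both lines. Its lowest, median and highest levels were 7.15, 10.95 and 15.6 CPM in WT and 0.778, 1.26 and 1.79 CPM in CD47- libraries. The WT libraries held 179 to 350 counts each, and the CD47- libraries held 15 to 53. PTCRA was therefore measured in every CD47- library, but from few counts. The log2 difference was -3.07 with an SE of 0.18 (8.37-fold lower, adjusted p = 3.68e-12), and it was -2.94, -3.46 and -2.88 in 1, 3 and 6 h libraries alone (-3.32 at 3 h without the CD47- library that stood apart). The main PTCRA transcript, ENST00000304672.6, held 79.7% ± 10.8 (SD, n = 10) of PTCRA counts in WT and 75.1% ± 16.4 in CD47- libraries. That transcript was lower by a log2 difference of -3.12 (adjusted p = 1.09e-08), and ENST00000616441.2 was also lower (-2.43, adjusted p = 0.0180).

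**Figure D1:**
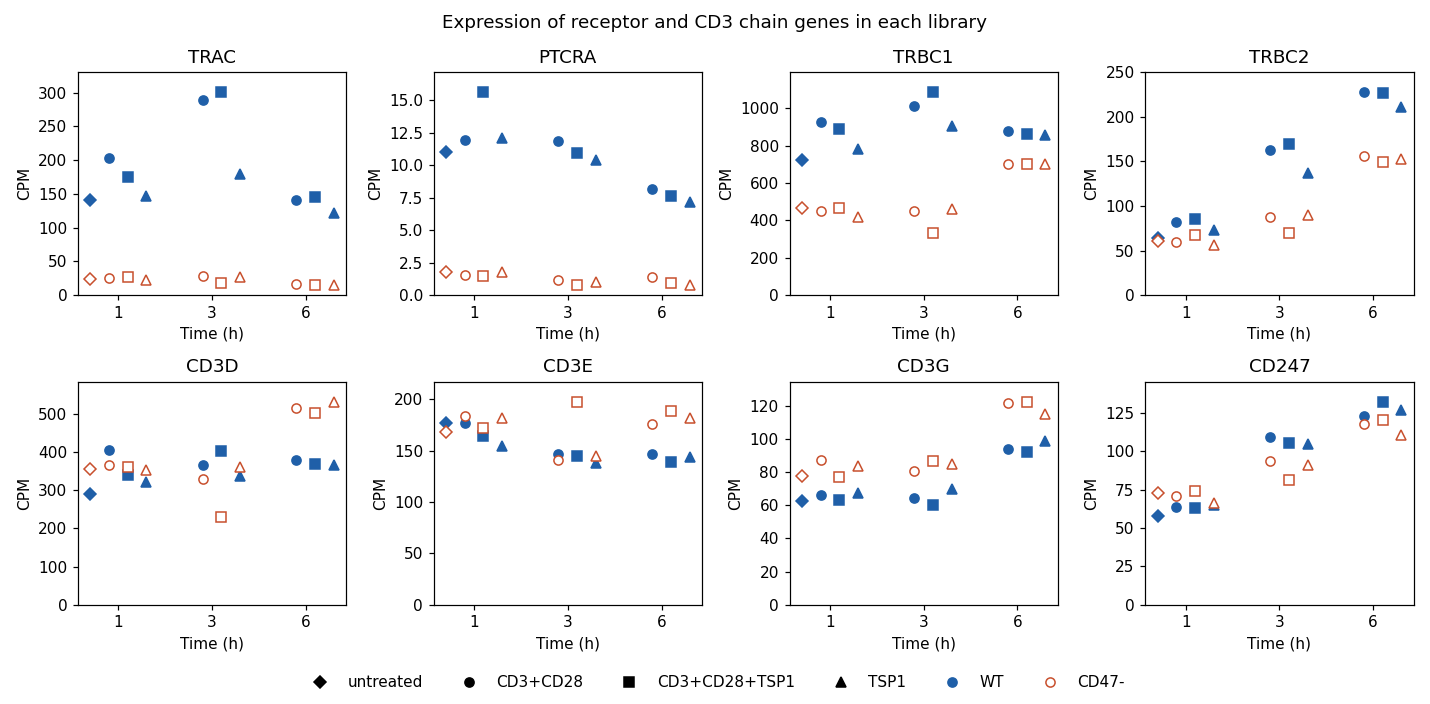
Expression of the 8 genes in each of the 20 libraries, in CPM on linear axes from 0, against time in h. Filled blue symbols are WT and open red symbols CD47- libraries, and the shape gives the treatment. TRAC and PTCRA of the CD47- line lie near the bottom of their panels at every time, TRBC1 of the CD47- line comes closest to WT at 6 h, CD3G of the CD47- line lies above WT at each time, and the ranges of the lines overlap at 1 h for CD3D and CD3E.

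Sequence upstream of 3 of the 8 genes, PTCRA, CD3D and CD247, was held in the RefSeq promoter table (GRCh38.p14). The 250 bases before the RefSeq start are shown for PTCRA and CD3D. E-boxes in the PTCRA promoter are known sites of the E proteins TCF3 and TCF12. Neither CD3D nor CD247 passed the line test over all conditions, and CD247 is given below by its matches only. Whether these letters bear on the line difference of PTCRA was not tested. Capitals mark each match to the E-box CANNTG, which reads the same on both strands.
PTCRA, chr6:42915803-42916052, plus strand: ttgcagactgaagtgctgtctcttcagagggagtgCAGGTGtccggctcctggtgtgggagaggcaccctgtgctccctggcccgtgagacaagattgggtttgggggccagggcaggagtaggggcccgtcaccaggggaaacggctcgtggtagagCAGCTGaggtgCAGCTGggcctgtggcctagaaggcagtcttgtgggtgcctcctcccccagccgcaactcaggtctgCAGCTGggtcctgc
CD3D, chr11:118342706-118342955, minus strand: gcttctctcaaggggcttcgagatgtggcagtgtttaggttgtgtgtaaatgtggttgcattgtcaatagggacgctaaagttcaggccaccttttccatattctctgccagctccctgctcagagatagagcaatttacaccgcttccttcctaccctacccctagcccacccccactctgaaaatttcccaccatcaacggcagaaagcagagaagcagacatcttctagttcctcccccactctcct

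The PTCRA window held 4 matches. The RefSeq starts of PTCRA and CD247 lie inside the GENCODE gene positions given here, so that the last bases of their windows, with the last PTCRA match, fall after the GENCODE start. The CD3D window held none and the CD247 window held 2. Of 35116 promoter windows of the same length, 61.8% held at least 1 match and 3.35% held 4 or more. Of 3 other motifs searched on both strands, the RUNX motif TGTGGT was found once in CD3D (in 11% of all windows), the ETS motif GGAAGT once in CD247 (19.5%) and the CSL motif TGGGAA once in CD3D (20.8%), and PTCRA held none of them. A match describes the letters of the window and says nothing of binding in these cells. TCF3 and TCF12 were named here because of these letters and after their values were seen. Their log2 differences between the lines were -0.38 (adjusted p = 0.181) and -0.30 (adjusted p = 0.233) over all conditions. That fit had no term for time or treatment.

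TRBC1 (chr7:142791694-142793368, ENSG00000211751.9) and TRBC2 (chr7:142801041-142802748, ENSG00000211772.11) lie 7672 bases apart on the plus strand. Their annotated coding sequences hold 530 and 536 bases, and the first 530 differ at 18 bases (96.6% identical). The longest run without a difference was 173 bases, from base 174 to 346 of the coding sequence, which is longer than a read of 125 bases. RSEM divides reads that match both genes between them, so the levels of TRBC1 and TRBC2 are estimates that depend on the reads covering the differing bases. The end of the coding sequence, bases 361 to 530, holds 11 of the 18 differences and is printed from GENCODE version 44, with differing bases in capitals.
TRBC1, bases 361 to 530: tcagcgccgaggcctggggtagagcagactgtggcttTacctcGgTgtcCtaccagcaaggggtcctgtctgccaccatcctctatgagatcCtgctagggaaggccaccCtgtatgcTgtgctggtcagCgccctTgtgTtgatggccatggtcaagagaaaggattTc
TRBC2, bases 361 to 530: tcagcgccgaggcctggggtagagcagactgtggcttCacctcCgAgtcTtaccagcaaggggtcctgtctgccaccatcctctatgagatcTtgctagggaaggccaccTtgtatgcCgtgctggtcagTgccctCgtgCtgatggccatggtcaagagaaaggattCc

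TRBC1 was the more abundant β constant gene in every library. Its lowest, median and highest levels were 724, 885 and 1088 CPM in WT and 333, 464 and 702 CPM in CD47- libraries. The ranges did not overlap, but the 6 h CD47- libraries came close to WT. The log2 difference was -0.80 with an SE of 0.12 (1.74-fold lower, adjusted p = 1.78e-05). TRBC1 was lower in CD47- cells at each time alone, with log2 differences of -0.89 at 1 h, -1.27 at 3 h and -0.29 at 6 h. The 3 h libraries include the CD47- library that stood apart, in which TRBC1 had its lowest level, and without this library the difference was -1.13 at 3 h and -0.72 over all conditions.

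TRBC2 was between 64.4 and 228 CPM in WT and between 56.4 and 156 CPM in CD47- libraries, with medians of 150 and 78.6 CPM. The ranges overlapped over all times, and within 1 h as well (64.4 to 85.8 CPM in WT against 56.4 to 67.9 CPM in CD47- libraries). Over all conditions the log2 difference was -0.60 with an SE of 0.27 (adjusted p = 0.0768), which did not pass. With a block for the 10 pairs (a WT and a CD47- library of like treatment and time), it was -0.57 with an SE of 0.09 and passed (adjusted p = 9.26e-05). In that fit 6 of the 8 genes passed, against 54.9% of all genes tested, and with a time term 6 passed, against 58.8%. TRBC2 was also lower in CD47- cells within each time, by a log2 difference of -0.33 at 1 h, -0.92 at 3 h (-0.82 without the library that stood apart) and -0.53 at 6 h. The summed count TRBC1+TRBC2 was lower in CD47- cells, with a log2 difference of -0.77 (SE 0.13, adjusted p = 7.66e-05).

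The 3 CD3 genes lie within 50432 bases on chromosome 11, and their line differences over all conditions were small, with 2 of the 3 past the threshold. CD3G (chr11:118344344-118355161, plus strand, ENSG00000160654.11) ranged over 60.4 to 98.7 CPM in WT against 76.9 to 123 CPM in CD47- libraries. Its log2 difference was 0.34 with an SE of 0.12 (1.27-fold higher, adjusted p = 0.0242). The ranges overlapped across times, but at 1, 3 and 6 h every CD47- library was above every WT library of that time, and CD3G was higher by a log2 difference of 0.33, 0.38 and 0.35 (0.36 at 3 h without the library that stood apart). The call over all conditions was lost without the CD47- library with CD3+CD28 at 6 h (adjusted p = 0.0508) or with CD3+CD28+TSP1 at 6 h (adjusted p = 0.0514).

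CD3E (chr11:118304730-118316175, plus strand, ENSG00000198851.10), whose product pairs with both the δ and the γ chain, ranged over 138 to 177 CPM in WT against 140 to 197 CPM in CD47- libraries. The log2 difference of 0.18 (SE 0.07) was just past the threshold (adjusted p = 0.0494). That call was lost in 14 of the 20 fits that each left out 1 library, with an adjusted p of at most 0.0890. CD3E differed between the lines in 6 h libraries (log2 difference 0.36, adjusted p = 1.78e-05) and missed the threshold in 1 h (0.07) and 3 h libraries (0.17, or 0.0012 without the library that stood apart). The main CD3E transcript, ENST00000361763.9, which held 90.8% ± 3.29 (SD, n = 10) of CD3E counts in WT, was higher by a log2 difference of 0.22 (adjusted p = 0.0417).

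CD3D (chr11:118339075-118342705, minus strand, ENSG00000167286.10) begins 1638 bases from CD3G on the other strand. It ranged over 291 to 406 CPM in WT against 231 to 532 CPM in CD47- libraries, so that the CD47- range enclosed the WT range. Its log2 difference over all conditions was 0.13 (SE 0.12, adjusted p = 0.422). By time, CD3D had a log2 difference of 0.08 at 1 h (adjusted p = 0.506) and of -0.26 at 3 h (adjusted p = 0.273, or -0.089 with adjusted p = 0.444 without the library that stood apart), and was higher in CD47- cells by 0.49 at 6 h (SE 0.04, adjusted p = 8.71e-07). The lowest CD3D level of all libraries was again in the CD47- library with CD3+CD28+TSP1 at 3 h.

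CD247 (chr1:167425027-167518640, minus strand, ENSG00000198821.11) ranged over 58.0 to 132 CPM in WT against 66.4 to 120 CPM in CD47- libraries. The log2 difference over all conditions was -0.08 (SE 0.17, adjusted p = 0.725). CD247 was higher in CD47- cells at 1 h (log2 difference 0.18, adjusted p = 0.0192) and lower at 6 h (-0.12, adjusted p = 0.0342), and its 3 h value was -0.26 (adjusted p = 0.0679), which passed without the library that stood apart (-0.20, adjusted p = 0.0303). The line difference of CD247 thus changed sign between 1 and 6 h, and both differences were small. CD247 overlaps the end of POU2F1 and other annotated genes, and the strand setting of the counting is not stated in the sources used here, so reads of these genes could have been assigned to CD247 or the reverse.

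Within single times, 6 of the 8 genes passed the line test at 1 h, 5 at 3 h and all 8 at 6 h. The shares of all genes tested that passed were 49.2% at 1 h, 30.3% at 3 h and 59.6% at 6 h. Each of these fits used 3 or 4 libraries per line, which differed in treatment. In the 6 pairs with antibodies 3 of the 8 passed, against 24.8% of all genes tested, and in the 4 pairs without antibodies 3 passed, against 16.4%.

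**Figure D2:**
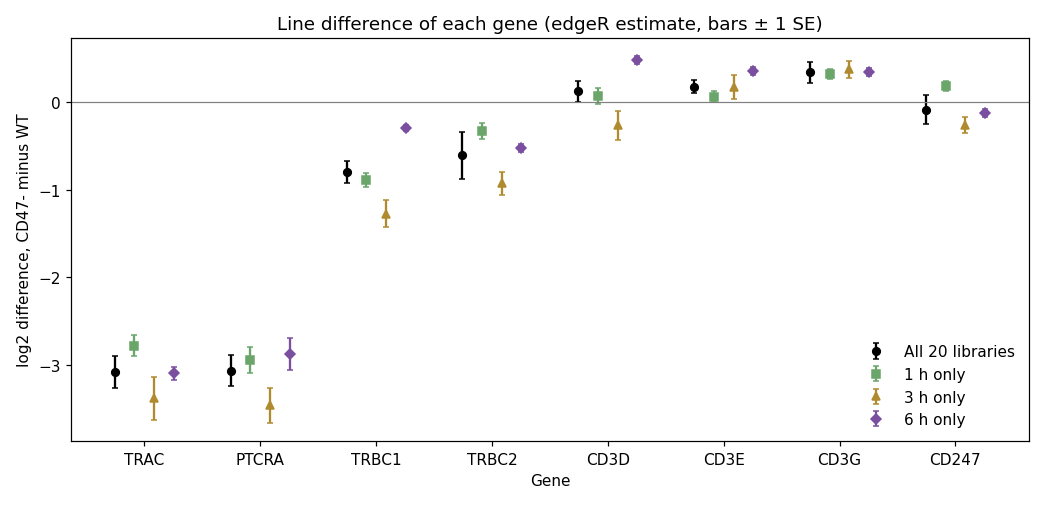
Log2 difference of CD47- minus WT for each of the 8 genes, from edgeR on all 20 libraries and on the 1 h, 3 h and 6 h libraries alone, with bars of 1 SE. TRAC and PTCRA lie near -3 in all 4 fits, the β genes lie between -0.29 and -1.27, and CD3D and CD247 lie on both sides of 0.

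Per transcript length the order of the genes differed between the lines. On the TPM scale (counts divided by annotated transcript length and scaled to a common total), TRBC1 was highest and PTCRA lowest in both lines. In WT cells TRBC1 was at 1059 ± 123 TPM (mean ± SD, n = 10), followed by CD3D at 491 ± 44.6, TRBC2 at 172 ± 77.1, TRAC at 169 ± 55.4, CD3E at 98.8 ± 10.8, CD247 at 51.8 ± 16.8, CD3G at 27.7 ± 5.76 and PTCRA at 9.67 ± 2.23 TPM. The neighbours TRBC2 and TRAC, TRAC and CD3E, and CD247 and CD3G had ranges that overlapped over the 10 libraries. TRBC2 was above TRAC in 3 of 10 libraries, so that the order of their means was not that of most libraries, while TRAC was above CD3E and CD247 above CD3G in all 10.

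In CD47- cells TRAC came after every CD3 chain gene. Its level of 24.2 ± 6.68 TPM was below CD3G at 41.6 ± 7.78 TPM in all 10 libraries, and CD247 was at 57.1 ± 10.9 TPM. TRBC1 was at 710 ± 111, CD3D at 613 ± 92.2, CD3E at 135 ± 27.5, TRBC2 at 130 ± 44.4 and PTCRA at 1.36 ± 0.427 TPM. Ranges overlapped for TRBC1 and CD3D, CD3E and TRBC2, CD247 and CD3G, and CD3G and TRAC, and CD3E exceeded TRBC2 in 5 of 10 libraries.

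**Figure D3:**
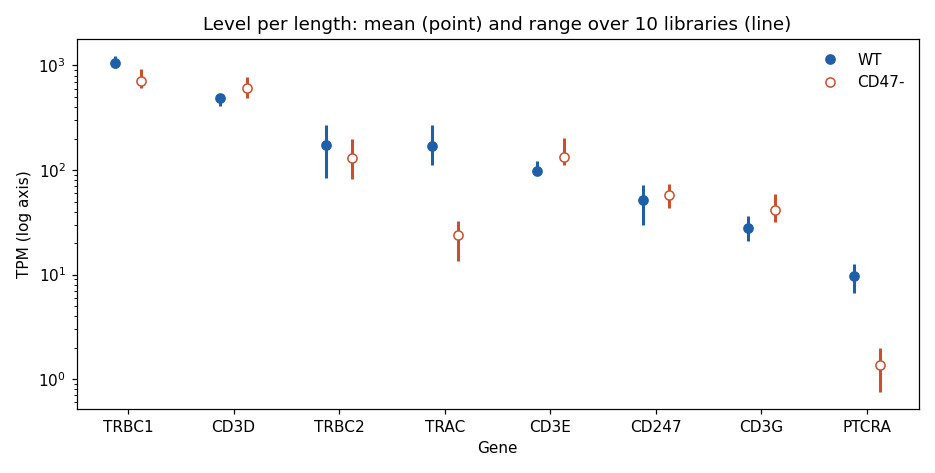
Level of each gene in TPM on a log axis, as the mean (point) and the range (line) over the 10 libraries of each line, in the order of the WT means. TRAC has the fourth highest mean in WT and the seventh in CD47- cells, while PTCRA is last in both.

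Ratios within a library do not depend on its size, and they separated the α from the β constant genes. In WT libraries the ratio of TRAC to the sum of TRBC1 and TRBC2 was between 0.114 and 0.245, with a median of 0.176. In CD47- libraries it was between 0.0176 and 0.0536, with a median of 0.0457. The log2 ratio was lower in CD47- cells by a difference of -2.25 (two-sided permutation test with 100000 resamples, p = 1e-05, the smallest these resamples can give, adjusted p = 3.00e-05 over the 3 ratios tested). Over the 10 matched pairs an exact sign-flip test gave an adjusted p of 0.00586.

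The ratio of PTCRA to TRAC did not separate the lines. Its WT median was 0.0583, with a range of 0.0364 to 0.0890, and its CD47- median was 0.0585, with a range of 0.0393 to 0.0825. The difference of the log2 ratio was -0.03 (permutation test, adjusted p = 0.872), and its sign changed when any of 6 libraries was left out.

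The ratio of TRBC1 to TRBC2 was lower at each later time in both lines, without overlap between times. In WT libraries it was 10.4 to 11.3 at 1 h, 6.21 to 6.63 at 3 h and 3.81 to 4.07 at 6 h. In CD47- libraries it was 6.86 to 7.74 at 1 h, 4.75 to 5.16 at 3 h and 4.49 to 4.70 at 6 h. The CD47- ratio was thus below every WT ratio of the same time at 1 and 3 h and above it at 6 h. Over all times the difference of the log2 ratio was -0.26 (permutation test, adjusted p = 0.404), and an exact sign-flip test over the matched pairs gave an adjusted p of 0.0762. These ratios rest on the division of shared reads between TRBC1 and TRBC2.

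**Figure D4:**
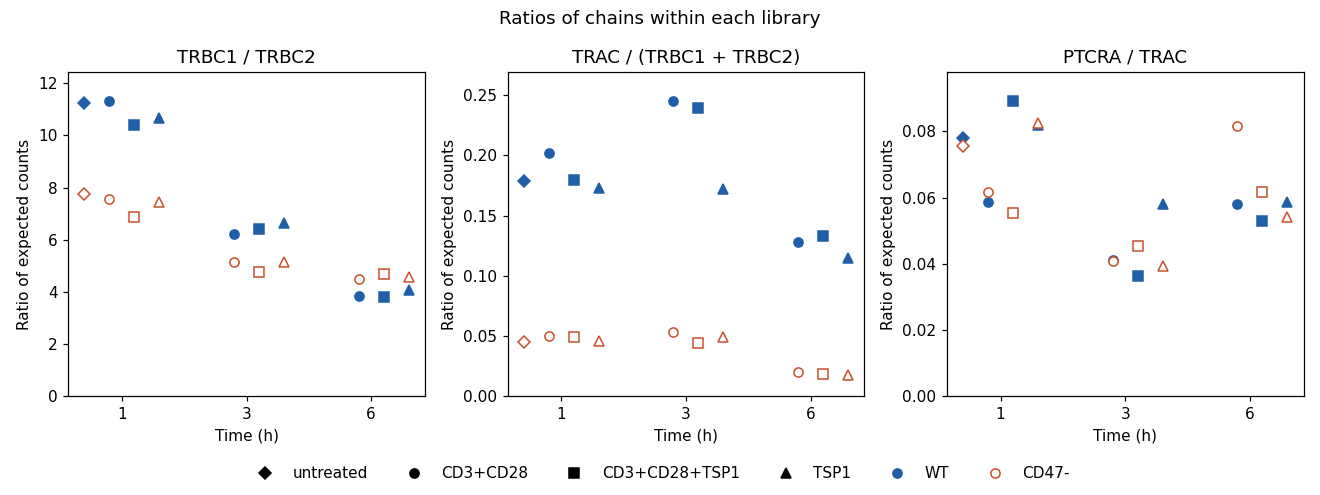
Ratios of expected counts within each library for TRBC1 to TRBC2, TRAC to the sum of TRBC1 and TRBC2, and PTCRA to TRAC, against time in h on linear axes from 0. Filled blue symbols are WT and open red symbols CD47- libraries. The first ratio is lower at each later time in both lines, the second is lower in every CD47- library, and the third overlaps between the lines.

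Time was the other large source of differences, and the design allows 3 and 6 h to be compared with 1 h in each line across treatments. Untreated cells had libraries only at 1 h, so time in culture cannot be told apart from the length of exposure to antibodies or TSP1. TRBC2 and CD247 rose and PTCRA and TRAC fell by 6 h in both lines, and CD3G rose to the same degree in both. TRBC1 and CD3D rose by 6 h in CD47- cells and did not pass the test in WT. At 6 h, 5 of 8 genes passed in WT, against 50.5% of all genes tested, and 7 of 8 in CD47- cells, against 53% of all genes tested. At 3 h, 3 genes passed in each line, against 34.3% in WT and 38% in CD47- cells.

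TRBC2 showed the largest change of the 8 genes by 6 h in both lines. In WT it was at 76.4 ± 9.57 CPM (mean ± SD, n = 4) at 1 h, 157 ± 17.4 CPM at 3 h and 222 ± 9.59 CPM at 6 h (n = 3). In CD47- cells it was at 60.9 ± 4.93, 82.3 ± 10.7 and 153 ± 3.60 CPM. No library of 1 time overlapped with another time within a line. The log2 change at 6 h was 1.47 (SE 0.09) in WT and 1.32 (SE 0.09) in CD47- cells, and at 3 h it was 0.96 and 0.42 (0.57 without the CD47- library that stood apart).

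CD247 followed a similar course. It rose by a log2 change of 0.74 at 3 h and 0.99 at 6 h in WT, from 62.5 ± 3.15 CPM at 1 h to 127 ± 4.58 CPM at 6 h. In CD47- cells it rose by 0.33 at 3 h (0.44 without the library that stood apart) and 0.72 at 6 h, from 71.1 ± 3.36 to 116 ± 5.08 CPM. Over the 20 libraries, with the mean of each line subtracted, the log2 levels of TRBC2 and CD247 had a Pearson r of 0.98, which describes libraries that share their time points and is not a test.

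CD3G changed late. It was at 64.9 ± 2.30, 64.9 ± 4.69 and 94.9 ± 3.33 CPM at 1, 3 and 6 h in WT and at 81.4 ± 5.02, 84.1 ± 3.05 and 120 ± 3.96 CPM in CD47- cells. The 6 h libraries stood above all earlier libraries of the same line. The log2 change at 6 h was 0.53 in WT and 0.54 in CD47- cells (SE 0.06 in both).

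TRBC1 differed between the lines in its change by 6 h. In CD47- cells it was at 450 ± 21.2 CPM at 1 h, and the 3 libraries at 6 h were at 701, 701 and 702 CPM. In WT it was at 832 ± 95.2 CPM at 1 h and 866 ± 10.6 CPM at 6 h. TRBC1 rose by a log2 change of 0.65 (SE 0.10, adjusted p = 9.93e-05) in CD47- cells, and the WT value was 0.00 (SE 0.10). The interaction of line and time was 0.65 (SE 0.14, adjusted p = 0.00782), and 16.6% of all genes tested passed this interaction test. It passed in all 20 fits that left out 1 library, with values between 0.57 and 0.77. For the summed count TRBC1+TRBC2 the interaction was 0.55 (adjusted p = 0.0182).

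CD3D showed a like pattern that did not pass. It rose by 0.52 (SE 0.11) at 6 h in CD47- cells, from 359 ± 5.32 to 516 ± 14.9 CPM, and the WT value was 0.07 (SE 0.11). The interaction was 0.45 (SE 0.16, adjusted p = 0.0716 with edgeR and 0.0249 with DESeq2). TRBC1 and CD3D had a Pearson r of 0.94 over the 20 libraries after the mean of each line was subtracted. Without the CD47- library with CD3+CD28+TSP1 at 3 h, 4 genes passed the interaction at 6 h, namely TRBC1 (0.65), CD3D (0.45), CD3E (0.23) and CD247 (-0.27), against 26.1% of all genes tested in that fit.

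At 3 h the rise of TRBC2 and CD247 was smaller in CD47- than in WT cells. The interaction was -0.54 (SE 0.13, adjusted p = 0.0351) for TRBC2 and -0.40 (SE 0.09, adjusted p = 0.0323) for CD247, against 4.28% of all genes tested that passed. These calls were close to the threshold. The TRBC2 call was lost in 12 and the CD247 call in 14 of 20 fits that each left out 1 library, with an adjusted p of at most 0.141 for TRBC2 and 0.142 for CD247. Without the library that stood apart the interactions were -0.39 (adjusted p = 0.0296) for TRBC2 and -0.30 (adjusted p = 0.0257) for CD247, and both passed.

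TRAC peaked at 3 h in WT cells. Its WT levels were 141, 204, 176 and 147 CPM at 1 h with no treatment, CD3+CD28, CD3+CD28+TSP1 and TSP1, and 288, 301 and 179 CPM at 3 h with CD3+CD28, CD3+CD28+TSP1 and TSP1. At 6 h they were 141, 145 and 122 CPM in the same order. TRAC rose by a log2 change of 0.53 at 3 h (SE 0.13, adjusted p = 0.00633) and was lower than at 1 h by 6 h (-0.36, SE 0.13, adjusted p = 0.0330). The change at 3 h was lost without the WT library with CD3+CD28+TSP1 at 3 h (0.41, adjusted p = 0.0508). The change at 6 h was lost without any of 4 WT libraries, those with CD3+CD28 or TSP1 at 1 h or with CD3+CD28 or CD3+CD28+TSP1 at 6 h, with an adjusted p of at most 0.140.

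In CD47- cells TRAC was at 23.8, 25.4, 26.2 and 21.97 CPM at 1 h, at 28.7, 17.7 and 26.9 CPM at 3 h and at 16.98, 15.5 and 15.01 CPM at 6 h, in the same order of treatments. It fell by a log2 change of -0.63 at 6 h (SE 0.14, adjusted p = 0.00210). The value at 3 h was -0.02 (SE 0.14), or 0.22 without the library that stood apart, with an adjusted p of 0.164. The interaction of line and time for TRAC at 3 h was -0.54 (adjusted p = 0.130).

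PTCRA declined in both lines. In WT it was at 12.6 ± 2.04 CPM at 1 h, 11.04 ± 0.730 CPM at 3 h and 7.65 ± 0.510 CPM at 6 h, and it fell by a log2 change of -0.78 at 6 h (SE 0.14, adjusted p = 0.000452). In CD47- cells it was at 1.64 ± 0.179, 0.988 ± 0.190 and 1.03 ± 0.297 CPM, with log2 changes of -0.69 at 3 h (adjusted p = 0.0203) and -0.63 at 6 h (adjusted p = 0.0201). The CD47- changes rest on few counts. The 3 h call was lost without any of the CD47- libraries with CD3+CD28+TSP1 or TSP1 at 1 h or with CD3+CD28 or CD3+CD28+TSP1 at 3 h (adjusted p between 0.0578 and 0.121). The 6 h call was lost without the CD47- library with CD3+CD28+TSP1 at 1 h, TSP1 at 1 h or TSP1 at 6 h (adjusted p between 0.0625 and 0.201).

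At 3 h CD3E had a log2 change of -0.17 in CD47- cells (adjusted p = 0.169), and of -0.32 without the library that stood apart (adjusted p = 0.00106). CD3E did not pass in either line at 6 h, with log2 changes of -0.20 in WT (adjusted p = 0.0777) and 0.02 in CD47- cells (adjusted p = 0.861). The WT change passed without the CD47- library with CD3+CD28+TSP1 at 1 h (adjusted p = 0.0377) or at 3 h (adjusted p = 0.00343), with a log2 change of -0.20 in both fits.

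**Figure D5:**
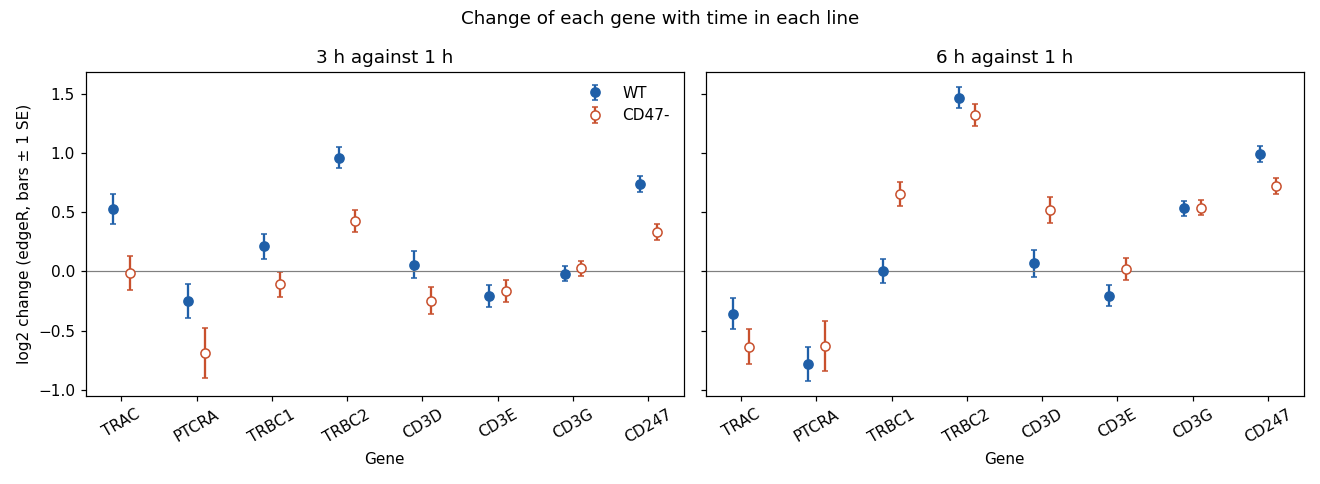
Log2 change of each gene at 3 h and at 6 h against 1 h, from the edgeR model of all 20 libraries, with bars of 1 SE. Filled blue points are WT and open red points CD47- cells. TRBC2 and CD247 lie above 0 in both panels, and TRBC1 and CD3D separate between the lines at 6 h.

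Engagement of CD3 and CD28 was compared with untreated cells and, in the presence of TSP1, with TSP1 alone at 1, 3 and 6 h. The untreated cells were at 1 h only. They were set against the CD3+CD28 libraries of 1, 3 and 6 h, adjusted by the time terms of the line, and not against the 1 h library alone. With the filter on low counts, no receptor gene passed in any of these comparisons. In WT cells, 15 genes or 0.0919% of all genes tested passed between CD3+CD28+TSP1 and TSP1, none of them among the 8. DESeq2 called 53 and limma voom 28 genes there, also none of the 8, and without a filter on low counts edgeR called 201, of which TRAC was 1. In CD47- cells 0% passed, with 2636 of 16327 genes at an unadjusted p under 0.05 with edgeR and no call with DESeq2 or limma voom. For CD3+CD28 against untreated cells 0% passed in WT and 0% in CD47- cells, with 1359 and 657 genes at an unadjusted p under 0.05. DESeq2 called 7 and 2 genes in these comparisons and limma voom none, and neither called any of the 8. Without a filter on low counts, edgeR called 271 and 256 of 41107 genes in these comparisons and 538 in CD47- cells between CD3+CD28+TSP1 and TSP1, none of them among the 8.

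TRAC had the largest activation value in WT cells. With CD3+CD28+TSP1 it exceeded TSP1 alone at each of the 3 times, by 176 against 147, 301 against 179 and 145 against 122 CPM. The log2 difference was 0.41 (SE 0.13, unadjusted p = 0.00667, adjusted p = 0.598 with edgeR), and the adjusted p was 0.336 with DESeq2 and 0.315 with limma voom. It passed only without a filter on low counts (adjusted p = 0.00242). In CD47- cells the TRAC value was -0.09 (SE 0.15), and the interaction was -0.50 (unadjusted p = 0.0222, adjusted p = 0.705, or 0.0373 without a filter), or -0.26 without the library that stood apart. TRBC2 in WT cells had a log2 difference of 0.21 (unadjusted p = 0.0335, adjusted p = 0.923), and these 2 genes were the ones of the 8 with an unadjusted p under 0.05.

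For CD3+CD28 against untreated cells, 2 of the 8 genes in WT had an unadjusted p under 0.05 with edgeR, namely TRAC (log2 difference 0.47, adjusted p = 0.581) and TRBC2 (0.36, adjusted p = 0.570). With limma voom there were 3 such genes, with CD3D added, and with DESeq2 or without a filter 4, with CD3D and TRBC1 added, and none of them passed after adjustment. Each line had a single untreated library, so the spread in these tests came from the other libraries of the model. The 8 values in CD47- cells lay between -0.02 and 0.18.

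Addition of TSP1 to CD3+CD28 was not followed by a detectable change of these genes. The 8 log2 differences lay between -0.07 and 0.06 in WT and between -0.38 and 0.17 in CD47- cells, and the value of -0.38 belonged to PTCRA (SE 0.22, adjusted p = 0.487). Of all genes tested 0% passed in WT and 0% in CD47- cells, with 366 and 1771 at an unadjusted p under 0.05. With the filter on low counts none of the 8 reached that level with edgeR or DESeq2 in either line. In CD47- cells CD3E did with limma voom, and TRAC and CD3D did with edgeR without a filter, and none of these was called after adjustment. Of all genes, DESeq2 called 1 in WT and 0 in CD47- cells and limma voom 0 in both. Without a filter edgeR called 84 genes in WT and 401 in CD47- cells, none of them among the 8. The interactions of line with activation in the presence of TSP1 and with TSP1 passed for 0% and 0% of all genes tested, with 1048 and 393 genes at an unadjusted p under 0.05, 4 and 0 DESeq2 calls, no limma voom call, and 255 and 140 calls without a filter. The 2 of the 8 genes at that level were TRAC, given above, and CD3D (-0.34, adjusted p = 0.705), both in the first of these interactions.

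At the level of isoforms, 22 isoforms of the 8 genes were tested, and 5 passed the line test, against 15.1% of all 55450 isoforms. These were the TRAC and TRBC1 transcripts, 2 PTCRA transcripts and the main CD3E transcript. With the matched pairs as a block 8 isoforms passed, against 19.9% of all isoforms. CD247 was split between ENST00000392122.3, with 61.6% ± 2.68 (SD, n = 10) of its counts in WT and 60.2% ± 4.97 in CD47- libraries, and ENST00000362089.10, with 30.01% ± 3.08 and 32.2% ± 4.90. Neither CD247 transcript passed the line test (log2 differences -0.11 and 0.05). The main CD3D transcript held 91.8% ± 2.71 and the main CD3G transcript 93.4% ± 2.15 of counts in WT.

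The genes around the receptor were described from lists of its partners. Among 9 coreceptors and surface partners, 5 were higher in CD47- cells, 1 was lower and 3 did not pass, against 40.4% of all genes tested that passed in either direction. CD28, the costimulatory receptor that the coated antibody engages, was at 45.1 ± 16.95 CPM (SD, n = 10) in WT against 230 ± 17.4 CPM in the CD47- line (log2 difference 2.35, SE 0.18), and its ranges did not overlap. CD2, an adhesion receptor, had a log2 difference of 1.43, and TRAT1, a transmembrane adaptor that binds the receptor complex, of 1.34. The lower gene was PTPRC, which encodes the phosphatase CD45 (log2 difference -0.52, adjusted p = 0.00108). PTPRC did not pass in 1 h libraries (adjusted p = 0.987) or in the 4 pairs without antibodies (0.209). With the block for matched pairs or a term for time, 6 genes of the list were higher and 1 lower (54.9% and 58.8% of all genes tested passed in these fits). CD4, a coreceptor, did not pass over all conditions (log2 difference 0.43, adjusted p = 0.278), and it was higher in CD47- cells with the block (0.47, adjusted p = 2.22e-05) and in 1, 3 and 6 h libraries alone (0.32, 0.56 and 0.62, or 0.47 at 3 h without the library that stood apart). The median log2 difference of the list was 0.54, and that of all tested genes was -0.01.

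Of 11 proximal signaling molecules, 5 were higher, 2 lower and 4 did not pass (40.4% of all genes tested passed), with a median log2 difference of 0.20. The 2 lower genes were the tandem SH2 kinases that bind phosphorylated CD3 and ζ chains, ZAP70 (220 ± 53.7 CPM in WT against 116 ± 36.7 CPM in the CD47- line, log2 difference -0.92, SE 0.17) and SYK (-0.92, SE 0.17). The adaptor GRAP2 (log2 difference 1.69, SE 0.22) and the phospholipase PLCG1 (0.62, SE 0.09) were higher without overlap between the lines.

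Of 17 transcription factors known to act on receptor, CD3 or pre-Tα genes, 16 were tested. Of these, 7 were higher and none was lower, a share near the 40.4% of all genes tested that passed. Without the CD47- library that stood apart, 1 was lower. ETS1 was at 230 ± 44.99 CPM in WT against 637 ± 83.95 CPM in CD47- cells (log2 difference 1.47, SE 0.11), GATA3 differed by 1.05 and TAL1 by 0.54. The median of the list was 0.28. With the block for matched pairs or a term for time, 10 of these factors were higher and 3 lower (54.9% and 58.8% of all genes tested passed in these fits). In 6 h libraries alone 7 were higher and 6 lower, against 59.6% of all genes tested.

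Of 8 genes of receptor assembly and turnover, 2 were higher and 2 lower, a share near the 40.4% of all genes tested. SLA2 (log2 difference 1.00, SE 0.14) and SLA (0.47, SE 0.14), adaptors that restrain receptor signaling, were higher, and the chaperone genes CALR (-0.71, SE 0.22) and PDIA3 (-0.45, SE 0.16) were lower. Neither chaperone gene passed with limma voom (adjusted p = 0.0676 for CALR and 0.138 for PDIA3) or in 1 h libraries, and neither these genes nor SLA passed in the 6 pairs with antibodies or the 4 pairs without. The number of lower genes fell to 1 without the CD47- library that stood apart. It also fell to 1 without the WT library with CD3+CD28, CD3+CD28+TSP1 or TSP1 at 6 h. CALR passed in each of these fits. The median of the list was 0.10. In 1 h libraries 4 genes of the list were higher and 0 lower (49.2% of all genes tested passed), at 3 h 3 were higher and 1 lower (30.3%), or 5 and 1 without the library that stood apart (41.4%), and at 6 h 2 were higher and 5 lower (59.6%). HSPA5, which encodes the chaperone BiP, was higher in CD47- cells by a log2 difference of 0.68 at 1 h and 0.68 at 3 h (0.54 without the library that stood apart), and lower by a log2 difference of -1.60 at 6 h (SE 0.06, adjusted p = 4.01e-10). CANX, which encodes the chaperone calnexin, had a log2 difference of 0.63 at 1 h (adjusted p = 6.30e-06) and -0.30 at 6 h (adjusted p = 4.44e-05). Over all conditions neither HSPA5 (-0.39, adjusted p = 0.363) nor CANX (0.20, adjusted p = 0.278) passed with edgeR. CANX passed with limma voom (0.41, adjusted p = 0.0187) and with a time term (0.26, adjusted p = 0.0251), but not with the block (0.26, adjusted p = 0.0772). HSPA5 changed sign with limma voom (0.07), the block (0.03) and a time term (0.03), and passed in none of these fits. The other receptor chain loci were at low levels, with a mean TRGC2 level of 4.84 CPM in WT against 5.04 CPM in CD47- cells and means under 1 CPM for TRGC1 and TRDC. Neither TRGC1 nor TRGC2 passed.

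Genes that varied most like each receptor gene across the 20 libraries, after subtraction of the line means of log2(CPM + 0.5), were taken as a description with no test. TRAC was nearest to VMP1 (Pearson r 0.95), EZR (0.93) and LPAR6 (0.93). TRBC2 was nearest to ITGAE (0.99), TRUB2 (0.99) and RBM8A (0.98), and CD247 to CD82 (0.98), CPPED1 (0.98) and TMEM229B (0.98). All libraries share the 3 time points, and the part of time in these values was not tested.

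CD3G was nearest to RUVBL1 (0.97) and E2F5 (0.97), and CD3D to EIF3I (0.97), POLR1H (0.95) and C1orf43 (0.95). TRBC1 was nearest to BUD23 (0.94), HAX1 (0.93) and TXNDC5 (0.93). PTCRA (LEMD3, 0.90) and CD3E (DNHD1, 0.90) had less close neighbours, followed by RNF4 (0.89) and MTCH1 (0.89) for PTCRA and by UBE2V1 (0.85) for CD3E.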

How the data were processed

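RNA of WT and CD47- Jurkat cells was sequenced as paired reads of 125 bases with the TruSeq mRNA kit. Per the submitters' processing notes, the authors used Cutadapt 1.18, STAR 2.4.2a and RSEM 1.3.3 on GRCh38. The deposited gene and isoform tables hold unnormalized RSEM expected counts. Each of them also has 2 columns matching none of the samples, which were not used. The strand setting of the counting and the batch that the authors removed with ComBat are not given in the sources used here, so neither was modelled, and the 20 libraries were used as deposited. Anti-CD28 was coated at 4 μg/mL. For anti-CD3 the paper and the labels give 2 in different units (μg/mL and mg/mL).

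Expected counts were rounded for edgeR 4.0.16 and DESeq2 1.42.0 (R 4.3.3), with limma 3.58.1 as a further alternative. The filterByExpr function, given the lines as groups with a minimum count of 10 and a minimum total of 15, left 16327 of 60719 genes, which were scaled by TMM factors. The lines were compared over all 20 libraries. Times, treatments and interactions were tested in 1 model whose coefficients were the treatments in each line and the 3 h and 6 h terms of each line, with 8 residual degrees of freedom. Benjamini-Hochberg adjustment covered every tested gene, and the threshold was 0.05. Because no condition was repeated, p-values measure the spread between these libraries, which may be technical. CPM are expected counts scaled by the TMM-adjusted library total. TPM were computed from expected counts and GENCODE version 44 transcript lengths, matched for 229321 of 232184 isoforms by identifier without version (at least 99.1% of counts in each library, and all 32 isoforms of the 8 genes). Ratios used a pseudocount of 0.5. Simulated counts with 200 changed genes were used to check the edgeR line test and some contrasts of the model. These contrasts were 6 h against 1 h and CD3+CD28+TSP1 against TSP1, both in WT. The other tests were not checked in this way.

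The pairs matched for treatment and time deviated together (correlations of 0.126 to 0.602 over the 10 pairs, pairing given by the design), although only 2 of the 10 WT libraries had their own pair as best match. The 8 genes and all lists were chosen with earlier results of these data known. From each list, the up to 3 genes that passed with the smallest p, and any gene without overlap at over 4-fold, were named, as were the 3 genes most like each of the 8 with a mean of at least 2 CPM in each line. A few items that these rules select are not reported here. PTPRC, CD4, SYK, PDIA3, HSPA5, CANX, TCF3, TCF12 and the γ and δ constant genes were added after their values were seen. The alternatives tried were limma voom after quantile normalization, DESeq2, upper-quartile factors, no filter or 1 CPM in every library, the matched pairs as a block, a time term, subsets by antibody or time, 1 line alone, a shared time effect, TRBC1 and TRBC2 summed, other pseudocounts, and each library left out.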

Additional observations from a re-analysis of the deposited data

Results flagged for a closer look

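Of the tests of a difference between the lines in a change, 3 passed for these genes. TRBC1 rose more by 6 h in CD47- than in WT cells, by an interaction of 0.65 on the log2 scale (16.6% of all genes tested passed at 6 h). By 3 h the change was smaller in CD47- cells for TRBC2 (-0.54) and for CD247 (-0.40), where 4.28% of all genes tested passed, and these calls were lost in 12 and 14 of 20 fits that each left out 1 library. In 44 groups of 4 or 10 libraries no level or ratio stood apart from its group by Dixon's criterion, which chance alone meets in about 1 of 20 groups. The groups were all 10 libraries of a line or its 4 libraries at 1 h. The 3 h and 6 h libraries were not examined by time. The CD47- library with CD3+CD28+TSP1 at 3 h was thus judged only within the wider spread of all times.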

How the results depend on the processing

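The calls of TRAC, PTCRA and TRBC1 between the lines held in every alternative that could test them (PTCRA could not be tested with a minimum of 1 CPM in every library), and the other line calls moved. TRBC2 passed with a log2 difference of -0.57 with matched pairs as a block, -0.57 with a time term, and -0.33, -0.92 and -0.53 in 1, 3 and 6 h libraries. The summed count of TRBC1 and TRBC2, most of it TRBC1, also passed (-0.77). CD3D passed at 6 h (0.49) and changed sign at 3 h (-0.26), and CD247 changed sign at 1 h (0.18) and passed at 6 h (-0.12). CD3E was no longer called at 1 h (0.067), at 3 h (0.17), in the 6 pairs with antibodies (0.22), in the 4 pairs without (0.16) or without a filter (0.19), and CD3G in the 6 pairs (0.40) or the 4 pairs (0.29). In 3 h libraries without the CD47- library with CD3+CD28+TSP1, chosen after seeing the data, TRBC2 (-0.82) and CD247 (-0.20) passed and CD3E (0.0012) and CD3D (-0.089) did not. Of the 8 genes, 8 were called between the lines at 6 h (59.6% of all genes tested), 3 in the 6 pairs (24.8%) and 3 in the 4 pairs (16.4%). The block called 8 isoforms of these genes (19.9% of all isoforms), and limma voom also called 8. Calls of WT at 3 h numbered 5 with WT alone, and without a filter 1 gene was called between CD3+CD28+TSP1 and TSP1 in WT and 1 in its interaction. The interaction at 6 h had 2 calls with DESeq2, 2 with a minimum of 1 CPM and 2 without a filter. The change of TRBC1 in WT at 6 h, near 0, reversed with DESeq2 (-0.0106), a minimum of 1 CPM (-0.0109), WT alone (-0.0039) and no filter (-0.0116). That of TRAC in CD47- cells at 3 h reversed with a minimum of 1 CPM (0.0104) and with CD47- alone (0.0074). With each library left out in turn, line differences ranged from -0.71 to -0.49 for TRBC2 (called without the WT untreated library or any CD47- library at 6 h), 0.16 to 0.22 for CD3E and 0.29 to 0.40 for CD3G. Changes by time ranged from -0.061 to 0.046 for TRBC1 and -0.017 to 0.15 for CD3D in WT at 6 h, and from -0.16 to 0.22 for TRAC and -0.22 to 0.064 for TRBC1 at 3 h and -0.093 to 0.098 for CD3E at 6 h in CD47- cells. Counts of calls ranged from 2 to 5 in WT at 3 h (5 without the CD47- library with CD3+CD28+TSP1 at 3 h), 0 to 2 for the interaction at 3 h and 1 to 4 at 6 h. The log2 ratio of PTCRA to TRAC ranged from -0.11 to 0.036. The causes of these shifts were not tested. Depth limits PTCRA in CD47- cells most, at 15 to 53 counts a library.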
